A study of Mus musculus with 2 samples.

Results

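The genes described here encode interleukin-2, interleukin-21 and the receptor chains of the common gamma family, the group of cytokine receptors to which both ligands bind. The members were all probe sets whose single gene symbol in the platform annotation was Il2, Il21, Il2ra, Il2rb, Il2rg, Il4ra, Il7r, Il15ra or Il21r. Of these 9 genes, 8 had such a probe set, 15 probe sets in all among 34945 with 1 gene symbol, which represent 18193 genes. Il2rg, the common gamma chain itself, had no probe set with that single symbol and was not analysed here. 1 probe set annotated to Il2 together with another gene was left out by the same rule.

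The samples were IL-5+ and IL-5- memory T helper 2 (Th2) cells, 1 Affymetrix array of each. Both came from CD4 T cells of BALB/c mice with the DO11.10 transgene for a T cell receptor against an ovalbumin (OVA) peptide. The cells were stimulated with that peptide for 6 days under Th2 conditions, with 25 U/ml IL-2 and 100 U/ml IL-4, which are ligands of receptors described here. They were moved into syngenic BALB/c nu/nu recipients and recovered from the spleen 30 days later, before cell sorting on IL-5. Athymic nu/nu hosts lack most T cells of their own but keep B cells, NK cells and myeloid cells. The labels used here do not state how many recipients were pooled, or whether the cells were restimulated before the sort. With 1 array per group no difference has a replicate check and no p-value was computed, so each ratio describes these 2 RNA samples.

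Cytokines of this family signal through receptors that share the common gamma chain and pair it with a chain of their own. IL-2 binds Il2ra together with Il2rb and the common gamma chain, and IL-15 uses Il15ra with the same signalling pair. IL-4, IL-7 and IL-21 use Il4ra, Il7r and Il21r, each paired with the common gamma chain. The receptors activate the kinases JAK1 and JAK3 and then STAT proteins, chiefly STAT5 for IL-2, IL-7 and IL-15, STAT6 for IL-4 and STAT3 for IL-21. In CD4 T cells IL-2 and IL-7 are known for proliferation and survival, IL-4 for Th2 differentiation, and IL-21 for help to B cells.

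The largest differences fell on neighbouring genes, so sequence at the start of 4 of them is shown. Il2 and Il21 are neighbours on chromosome 3, where their signals differed in opposite directions, and Il4ra and Il21r are neighbours on chromosome 7, where both signals were lower in IL-5+ cells. The stretches are from RefSeq, build GRCm38.p6, 5′ to 3′ on the gene's own strand. Those of Il2 (chr3:37125955-37126204, minus strand), Il21 (chr3:37232637-37232886, minus strand) and Il4ra (chr7:125552021-125552270, plus strand) are the 250 bases before the start site. For Il21r the annotated gene begins before the start site of the table, and 177 of the 250 bases lie inside the gene. Only 30 bases around its motif matches are therefore shown (chr7:125603382-125603411, plus strand), and these also lie inside the gene. Capitals mark letters that match a motif searched on both strands.
Il2: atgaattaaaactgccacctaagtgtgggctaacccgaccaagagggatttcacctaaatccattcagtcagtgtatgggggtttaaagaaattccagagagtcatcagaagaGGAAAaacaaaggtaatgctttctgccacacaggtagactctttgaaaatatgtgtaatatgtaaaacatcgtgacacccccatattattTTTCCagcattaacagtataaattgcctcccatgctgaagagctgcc
Il21: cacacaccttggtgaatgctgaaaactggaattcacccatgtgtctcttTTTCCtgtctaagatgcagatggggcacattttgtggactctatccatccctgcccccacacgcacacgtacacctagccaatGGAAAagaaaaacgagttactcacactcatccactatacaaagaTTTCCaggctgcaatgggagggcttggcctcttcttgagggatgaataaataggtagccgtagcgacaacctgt
Il4ra: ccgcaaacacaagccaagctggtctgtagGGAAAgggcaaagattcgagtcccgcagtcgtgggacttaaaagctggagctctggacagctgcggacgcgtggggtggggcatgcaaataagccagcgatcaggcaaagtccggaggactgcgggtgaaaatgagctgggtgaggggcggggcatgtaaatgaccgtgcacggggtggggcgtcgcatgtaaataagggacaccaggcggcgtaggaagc
Il21r: gcggggcacTGTTTACCACAtcccctcccc

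The core of sites for the calcium-regulated factor NFAT was searched for as GGAAA. Sites of AP-1, the Fos and Jun dimer, were searched for as TGANTCA, and those of the STAT proteins as TTCNNNGAA or, for STAT6, with a spacer longer by 1 base. For the FOXO factors of resting T cells the letters were TGTTTAC. Factors of the RUNX family were represented by the letters TGTGGT. The GATA factors, among them the Th2 factor GATA3, were represented by AGATAA. The search for ETS family sites used the letters CGGAAG. The NFAT core GGAAA occurred at 2 places upstream of Il2, 3 upstream of Il21 and 1 upstream of Il4ra. These 5 letters were present in 55.6% of all 32851 windows of this length, so a match is common. In Il21r a TGTTTAC match overlapped a TGTGGT match. TGTTTAC was present in 3.17% of all windows and TGTGGT in 14.0%. None of the 9 member windows, which include Il2rg and 2 for Il15ra but none for Il2rb, held AGATAA or the STAT6 motif. Both are uncommon, with AGATAA present in 9.99% of all windows and the STAT6 motif in 5.85%. A match describes letters only and was not linked to binding in these data.

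The signal of a probe set is its brightness on a linear scale, deposited by the authors. Values of a gene are those of its brightest probe set by mean log2 signal unless stated, and signals under 36.3, the 40th percentile over both arrays, were raised to that floor. All 8 genes lay above the floor on both arrays at that probe set. The only error available was the disagreement between probe sets of the same gene. For the log2 ratio of IL-5+ over IL-5- this SD was 0.54 where the mean signal lay between 36.3 and 112.8, 0.38 between 112.8 and 500, 0.21 between 500 and 2000, and 0.13 above that. The SD was taken only among probe sets of a gene that fell in the same range of mean signal. Disagreement between a bright and a dim probe set in different ranges, as for Il21, is therefore not part of it. Nor is variation between cell preparations. Il5, on which the cells were sorted, read 37085 in IL-5+ cells and 67.4 in IL-5- cells. Trimmed mean signals were 496 and 497 on these arrays, and the median log2 ratio of the 13145 genes above the floor was -0.047.

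Of the 8 genes, 3 (Il21, Il4ra and Il21r) had signals in IL-5+ cells that were lower by 2-fold or more, and 0 were 2-fold higher. Over all genes above the floor the shares were 4% at least 2-fold lower and 2.85% at least 2-fold higher. The members' log2 ratios ran from -1.87 to 0.91 with a median of -0.19, and 6 were below 0 and 2 above. Of all 13145 genes above the floor, 7285 were below 0 and 5839 above. Il4ra was the member just past the 2-fold limit, at 2.13-fold, and Il2 the one just short of it, at 1.88-fold.

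**Figure D1:**
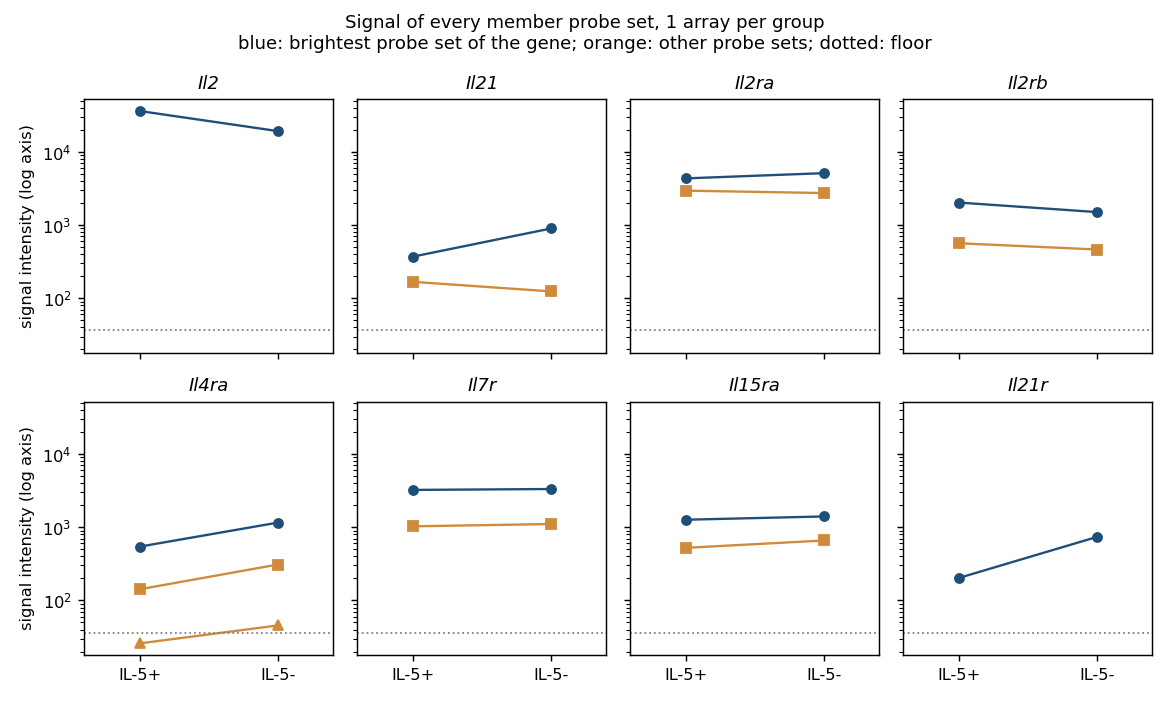
Signal intensity (log axis) of the 15 member probe sets on the IL-5+ array (left) and the IL-5- array (right), 1 panel per gene, with the brightest probe set in blue, others in orange and the floor of 36.3 dotted. Lines slope up to the right for Il4ra and Il21r and are nearly flat for Il7r, while the probe sets of Il21 slope in opposite directions.

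The ligand genes differed in opposite directions. Il2, the T cell growth factor gene, had a signal of 36010.2 in IL-5+ cells and 19127.5 in IL-5- cells. Its signal was thus higher in IL-5+ cells, by 1.88-fold (log2 ratio 0.91), which is 6.79 times the SD between probe sets at that brightness but under the 2-fold limit. The probe set was among the brightest measured, with only 107 of 45037 probe sets brighter in IL-5+ cells and 359 in IL-5- cells. Array signals can be compressed near the top of the range, which was not tested on these arrays. Among the 2429 genes with a mean signal of 2000 or more, 51 had a higher log2 ratio than Il2. Il2 had a single probe set with that symbol alone, so its direction rests on that probe set. Its log2 ratio stayed between 0.86 and 0.99 under 3 other scalings and an added constant. Other floors and probe set choices could not change it.

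Il21 encodes a cytokine best known from follicular helper cells. Its brighter probe set read 369 in IL-5+ cells and 896 in IL-5- cells, 2.43-fold lower in IL-5+ cells (log2 ratio -1.28). Its dimmer probe set, which the annotation ties to an expressed sequence tag, read 168 in IL-5+ cells and 124 in IL-5- cells, a log2 ratio of 0.44. The probe sets of Il21 therefore disagreed in sign. The log2 ratio of the dim one was 1.16 times the SD between probe sets at its brightness, and that of the bright one 6.13 times. With the median of both probe sets the log2 ratio was -0.42, which is no longer 2-fold. At the brighter probe set, 54 of the 3421 genes with a mean signal from 500 to 2000 had a lower ratio. The direction given for Il21 rests on that 1 probe set.

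Among the receptor chains, Il21r and Il4ra were lower in IL-5+ cells. Il21r, the private chain of the IL-21 receptor, had a signal of 202 in IL-5+ cells and 737.5 in IL-5- cells. It was the most different member, 3.64-fold lower in IL-5+ cells (log2 ratio -1.87, or 4.97 times the SD between probe sets at that brightness). Of the 2939 genes with a mean signal from 112.8 to 500, 23 had a lower ratio. Il21r had a single probe set, so no other one could be set beside it. Its log2 ratio stayed between -1.82 and -1.64 under the 3 other scalings and the added constant. The other floors and probe set choices could not change it. Both the ligand gene Il21, at its brighter probe set, and its receptor gene were thus lower in the same RNA sample.

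Il4ra encodes the chain that binds IL-4 and, paired with another chain, IL-13. Its brightest probe set read 542.5 in IL-5+ cells and 1157 in IL-5- cells, and the second read 142 in IL-5+ cells and 309 in IL-5- cells. The log2 ratios of these probe sets, -1.09 and -1.12, differed by far less than the SD between probe sets. The third probe set was under the floor in IL-5+ cells, at 25.9, and just above it in IL-5- cells, at 45.6, so it gave only a bound (lower by at least 1.26-fold). All 3 probe sets read lower in IL-5+ cells. Of the 3421 genes with a mean signal from 500 to 2000, 67 had a lower ratio than Il4ra. All Il4ra probe sets carry the suffix _a_at or _x_at. Leaving such probe sets out removes the gene, and in the other 8 alternatives its log2 ratio stayed between -1.09 and -1.01. The 3 floors among these could not change that ratio.

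Il2ra and Il2rb, the chains that bind IL-2, differed little. Il2ra, the high-affinity chain CD25, read 4328 in IL-5+ cells and 5104 in IL-5- cells at the brighter of 2 probe sets (log2 ratio -0.24). Its other probe set read 2945 in IL-5+ cells and 2728 in IL-5- cells (0.11), so its probe sets disagreed in sign. Il2rb, the signalling chain CD122 shared with the IL-15 receptor, read 2025 in IL-5+ cells and 1501 in IL-5- cells (log2 ratio 0.43). Its second probe set read 563 in IL-5+ cells and 463 in IL-5- cells (0.28). Both Il2rb probe sets were thus higher in IL-5+ cells, by 2.07 and 1.36 times the SD between probe sets, and both were far from 2-fold. Among the 3421 genes of the same brightness as its brightest probe set, 284 had a higher ratio than Il2rb, so its place among them was not unusual.

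Il7r and Il15ra read nearly the same on both arrays. Il7r, the chain that binds IL-7 and is a marker of long-lived T cells, had signals of 3230.1 in IL-5+ cells and 3321 in IL-5- cells (log2 ratio -0.040). Its second probe set read 1028 in IL-5+ cells and 1105 in IL-5- cells (-0.10). Il15ra, the chain that presents IL-15 to neighbouring cells, read 1265 in IL-5+ cells and 1402 in IL-5- cells (-0.15), and at its dimmer probe set 522 in IL-5+ cells and 659 in IL-5- cells (-0.33). The ratios of both Il7r probe sets and of the brighter Il15ra probe set were smaller than the SD between probe sets, whereas the dimmer Il15ra one was 1.60 times it. In order of log2 ratio the receptor chains ran Il21r, Il4ra, Il2ra, Il15ra, Il7r and Il2rb. Il2ra, Il15ra and Il7r lay within 0.20 of one another, comparable with the SD between probe sets at those signals, so these neighbours in the order could not be told apart.

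**Figure D2:**
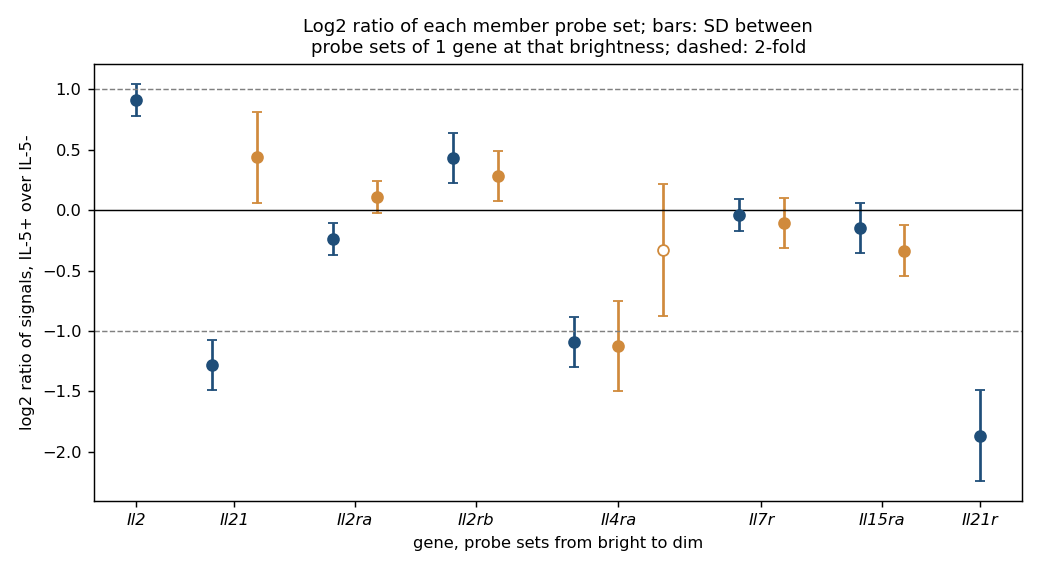
Log2 signal ratio (IL-5+ divided by IL-5-) for each member probe set, from bright to dim within a gene. Bars are the SD between probe sets of 1 gene at that brightness, blue is the brightest probe set, the open point is a bound and dashed lines mark 2-fold. Il21r, the brighter Il21 probe set and 2 Il4ra probe sets lie below -1, and Il2 lies just under 1.

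**Figure D3:**
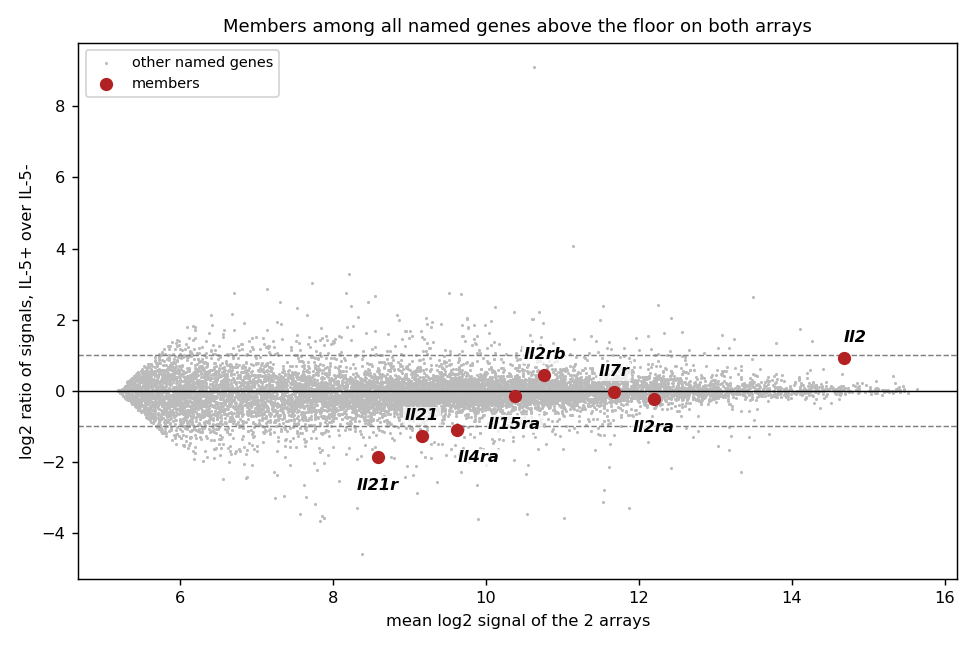
Log2 signal ratio (IL-5+ divided by IL-5-) against mean log2 signal of the 2 arrays for named genes above the floor on both arrays (grey) and the 8 members (red), with dashed lines at 2-fold. Il21r, Il21, Il4ra and Il2 lie at the edge of the cloud of genes of their brightness, and the others lie within or close to it.

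The position of the genes was set beside these ratios, using the order of genes in the RefSeq table of GRCm38.p6. 6 of the 8 measured members lie as neighbours in pairs, with no other gene that has a named probe set between them. On chromosome 3, Il2 (0.91) and Il21 (-1.28) had log2 ratios of opposite sign. Cetn4, a centrin gene beyond Il21, read 570.2 in IL-5+ cells and 936 in IL-5- cells (-0.72), with its second probe set at -0.93. Adad1, on the other side of Il2, was under the floor on both arrays. Il21 at its brighter probe set and Cetn4 thus read lower in IL-5+ cells, and Il2 read higher.

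On chromosome 7, Il4ra (-1.09) and Il21r (-1.87) were both lower in IL-5+ cells. Nsmce1, a gene of the SMC5-SMC6 complex on the far side of Il4ra, read 912 in IL-5+ cells and 1762 in IL-5- cells (-0.95), and its 3 measured probe sets ran from -0.95 to 0.17. Gtf3c1, a subunit gene of the transcription factor TFIIIC on the far side of Il21r, read 677.5 in IL-5+ cells and 641 in IL-5- cells (0.079), and its probe sets ran from -0.72 to 0.079. On chromosome 2, Il2ra (-0.24) and Il15ra (-0.15) differed little, as did the flanking genes Rbm17 (-0.070, and -0.78 at its other probe set) and Fbh1 (0.13). Around the remaining members, Tmprss6 beside Il2rb stood at -0.38, and Capsl beside Il7r read 50.1 in IL-5+ cells and 199 in IL-5- cells (-1.99). C1qtnf6 and Spef2, on their other sides, were under the floor on both arrays.

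**Figure D4:**
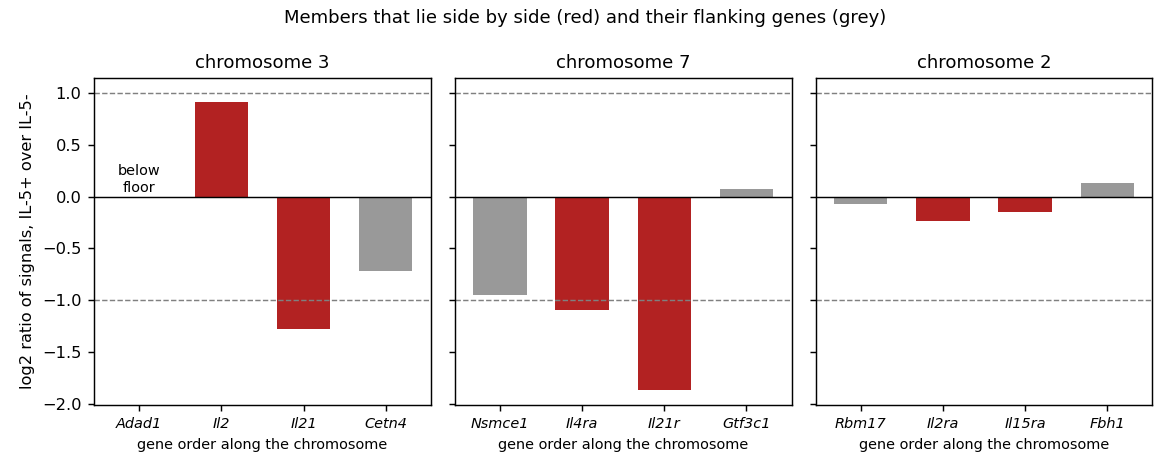
Log2 signal ratio (IL-5+ divided by IL-5-) at the brightest probe set of the members that lie side by side (red) and of the nearest flanking genes with a named probe set (grey), in gene order and not to distance, with dashed lines at 2-fold. Il4ra and Il21r both reach below -1, Il2 and Il21 point in opposite directions, and the bars of the chromosome 2 genes are short.

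The genes with the nearest log2 ratio were listed for the most different members, among 5850 genes for Il21r and 5849 for Il21 with a mean signal of 500 or more. For Il21r (-1.87) these were Tmem131l (-1.86), Zc3h12d (-1.88) and Ifi202b (-1.85). For Il21 (-1.28) they were Icam1 (-1.28), AW112010 (-1.29) and Gemin8 (-1.29). Over 2 arrays likeness is the difference between 2 ratios, and many genes come equally close.

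The rest of the pathway was described from gene lists. Of 5 further ligand genes of the family, 3 were above the floor. Il4 read 32261 in IL-5+ cells and 9637 in IL-5- cells (log2 ratio 1.74), and Il9, a mast cell growth factor gene, read 9277 in IL-5+ cells and 547 in IL-5- cells (4.08). Il15 was dim, at 40.6 in IL-5+ cells and 42.6 in IL-5- cells. Il7 and Tslp were under the floor on both arrays. Thus 2 of the 3 measured were at least 2-fold higher, and the gene for the receptor of one of them, Il4ra, was lower in the same cells. Of 4 further receptor chains, Crlf2, which pairs with Il7r to bind TSLP, read 5434.5 in IL-5+ cells and 5099 in IL-5- cells (0.092). Il13ra2 was dim (0.033), and Il9r and Il13ra1 were under the floor.

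At their brightest probe set, the kinases and STAT genes downstream of these receptors differed by less than 2-fold. Of 10, 9 had a named probe set and none of the 9 was at least 2-fold higher or lower, with a median log2 ratio of -0.0040 and a range from -0.60 to 0.41. Stat5b (1170.0 in IL-5+ cells and 1770.5 in IL-5- cells, -0.60), Stat3 (3548 in IL-5+ cells and 2665 in IL-5- cells, 0.41) and Stat4 (0.38) differed most. Jak1 (-0.0040), Jak3 (-0.38), Stat5a (-0.10) and Stat6 (0.050), named for their role after their values were seen, had smaller ratios than Stat5b. The 2 measured probe sets of Tyk2, also named after its values were seen, ran from -0.19 at the brightest to 1.29.

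Among feedback inhibitors of this signalling, 2 of 12 had a signal lower by 2-fold or more in IL-5+ cells and 0 a higher one, with a median of -0.22. Socs3, an inhibitor induced through STAT3, read 496 in IL-5+ cells and 1772 in IL-5- cells (-1.84), and its 3 probe sets all lay at -1.33 or lower. Socs2, which STAT5 induces, read 1566 in IL-5+ cells and 3480 in IL-5- cells (-1.15), although its 6 measured probe sets ran from -1.15 to -0.0079. Socs1 read 758.5 in IL-5+ cells and 1431 in IL-5- cells (-0.92). Cish, another STAT5-induced inhibitor, named after its value was seen, read 6994 in IL-5+ cells and 7149 in IL-5- cells (-0.031). Socs5 (1907 in IL-5+ cells and 1391 in IL-5- cells, 0.45) and Socs7 (-0.0022), also named after their values were seen, were not lower, so the SOCS genes did not share a direction.

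Of 18 genes known to be induced through STAT5, 2 were at least 2-fold lower and 0 higher, 15 were below 0, and the median was -0.18. Over all 13145 genes above the floor, 7285 were below 0 and the median was -0.047. Beside Socs2, the kinase gene Pim2 read 1868 in IL-5+ cells and 4331 in IL-5- cells (-1.21), and Lta, the lymphotoxin alpha gene, read 1384 in IL-5+ cells and 2500.3 in IL-5- cells (-0.85). In the adaptor and PI3 kinase list, 1 of 10 measured genes was at least 2-fold higher and 0 lower, with a median of 0.12. That gene was Irs2, an adaptor of the IL-4 receptor, at 1578 in IL-5+ cells and 434.5 in IL-5- cells (1.86). Sos1 (-0.66) and Inpp5d (-0.53), which encode a Ras activator and the phosphatase SHIP1, followed in size. Their probe sets disagreed in sign, with 4 of Sos1 from -0.66 to 0.38 and 2 of Inpp5d from -0.53 to 0.12.

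Genes for factors known to act on Il2 and Il21 were mixed. Of 19 measured, 3 were at least 2-fold higher and 2 lower, with a median of 0.20. Fos read 1224 in IL-5+ cells and 323 in IL-5- cells (1.92), and Fosl2 read 863 in IL-5+ cells and 417 in IL-5- cells (1.05). Ikzf3, which encodes the Ikaros family factor Aiolos, a repressor of Il2, read 502 in IL-5+ cells and 2120 in IL-5- cells (-2.08), with all 3 probe sets at -1.01 or lower. Fosb (1.02), Rel (0.90) and Maf, a factor that promotes Il21 (-1.01), are named after their values were seen. So are Nfatc2 (-0.85, with 3 probe sets from -1.13 to 0.51), Irf4 (-0.52), Crem (0.60) and Batf (0.39). The 5 Maf probe sets ran from -1.88 to -0.35, and the 2 of Fosl2 from 0.54 to 1.05. Of the 19 genes, 11 were above 0 and 8 below. Among 8 factors known to act on Il7r, Klf2 read 275 in IL-5+ cells and 3323 in IL-5- cells (-3.60). Runx3 stood at -0.39 and Runx1 at 0.78, with 6 Runx1 probe sets from -0.47 to 1.39. Klf2 was the 1 of these 8 that was lower by 2-fold or more, 0 were 2-fold higher, and the median was 0.15. Follicular helper genes, the setting in which Il21 is best known, had 4 of 9 at least 2-fold lower and 0 higher, with a median of -0.061. Slamf6 (-1.63, with 3 probe sets from -3.08 to -0.71), Pou2af1 (-1.28) and Sh2d1a (-1.25) led these. Cxcr5, the other one, was under the floor in IL-5+ cells, at 24.1, and read 85.1 in IL-5- cells. Bcl6 (0.63), Cd40lg (0.50) and Pdcd1 (0.37) were above 0, and Icos stood at -0.061, so the list did not share a direction. These 5 genes are named after their values were seen.

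**Figure D5:**
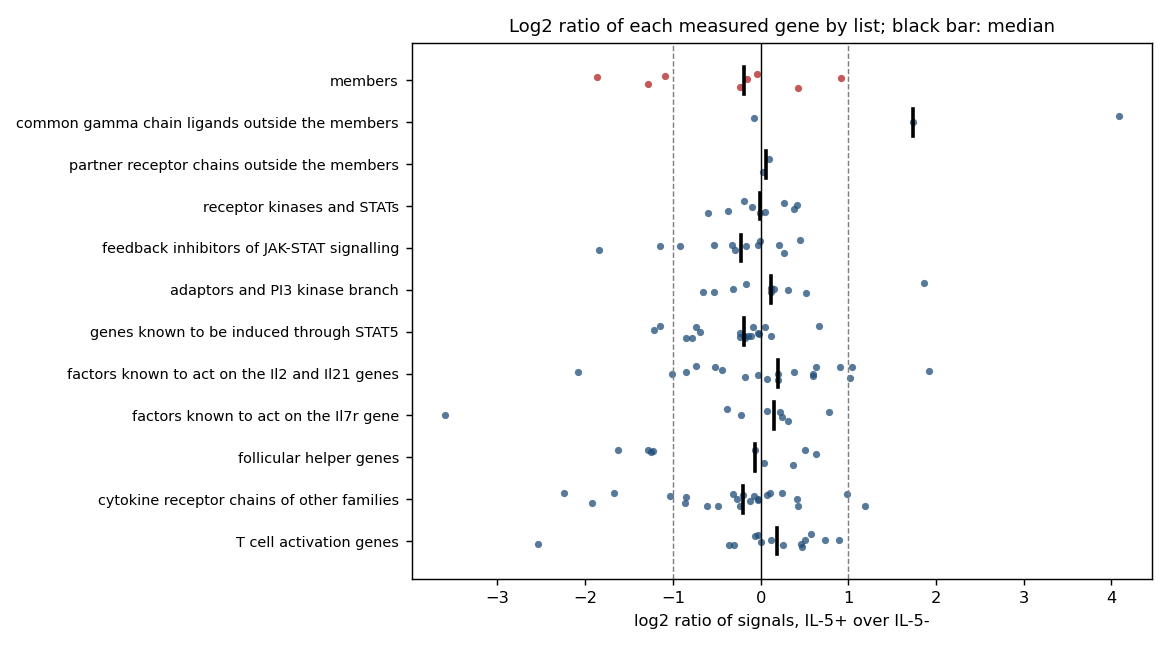
Log2 signal ratio (IL-5+ divided by IL-5-) of each measured gene in the members (red) and in the pathway, regulator and comparison lists (blue), with the median as a black bar and dashed lines at 2-fold. Medians of the lists lie between -0.22 and 0.20 except for the further ligands at 1.74, which have only 3 measured genes.

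Receptor chains of other cytokine families had a similar median. Of 23 measured, 4 had a signal lower by 2-fold or more in IL-5+ cells and 1 a higher one, with a median of -0.20. The 6 receptor chains of the common gamma family had 2 lower, 0 higher and a median of -0.19. These lists differed in brightness, with 11 of the 23 under a mean signal of 500 against 1 of the 6. At 500 or more the medians were -0.16 for 12 chains of other families and -0.15 for 5 members. Some of the 23 were above the floor on 1 array only, so their ratios are bounds. The IL-6 receptor genes Il6ra (-2.24) and Il6st (-1.92) and the interferon gamma receptor gene Ifngr2 (-1.67) differed most. The 2 probe sets of Il6ra ran from -2.24 to -0.18 and the 4 of Il6st from -2.00 to 0.047, whereas those of Ifngr2 lay at -1.67 and -1.45. T cell activation genes had a median of 0.19, and 1 of 14, Lag3 (148 in IL-5+ cells and 857 in IL-5- cells), was at least 2-fold lower and 0 were higher. Tfrc (0.73), the transferrin receptor gene, and Nr4a2 (0.89) followed. The 3 probe sets of Tfrc ran from 0.13 to 0.73 and the 5 of Nr4a2 from -0.0051 to 1.27.

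Several of these genes are also expressed by other cells, and in bulk RNA fewer cells of a type and less RNA per cell cannot be told apart. Of 12 conventional T cell markers, 9 had a named probe set and all 9 were above the floor, with summed signals of 50471 in IL-5+ cells and 63390 in IL-5- cells. Cd3d (-0.57) and Cd2 (-0.42) were the brightest. Of the 9, 7 were below 0 and 2 above, with a range from -0.81 to 0.19. Those above 0 were Zap70 (0.10) and Thy1 (0.19), named after their values were seen. Il21r and Il4ra are also active in B cells and myeloid cells. Of 10 B cell and plasma cell markers with a probe set, 4 were under the floor on both arrays, namely Cd79a, Cd79b, Blnk and Ebf1, and the summed signal was 325 in IL-5+ cells and 1165 in IL-5- cells. Most of that difference was Ighm (64.4 in IL-5+ cells and 813 in IL-5- cells, with 5 probe sets from -3.66 to 0.16), and the other 9 summed to 261 in IL-5+ cells and 351.5 in IL-5- cells. Ms4a1, the second brightest, read 60.7 in IL-5+ cells and 62.1 in IL-5- cells. Pax5 (6.4 in IL-5+ cells and 70.2 in IL-5- cells) and Jchain (28.8 in IL-5+ cells and 67.7 in IL-5- cells) were above the floor in IL-5- cells alone. Cd22 (38.6 in IL-5+ cells and 21.9 in IL-5- cells) was above it in IL-5+ cells alone. Sdc1 read 57.3 in IL-5+ cells and 51.2 in IL-5- cells. Apart from Ighm and Ms4a1, these markers, and Foxp3 among regulatory T cell markers, are named after their values were seen.

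Of 15 myeloid and dendritic cell markers, 5 were under the floor and 1 was at least 2-fold lower, with summed signals of 758 in IL-5+ cells and 1075 in IL-5- cells. H2-Ab1 read 157 in IL-5+ cells and 250.4 in IL-5- cells, and Cd74 read 140 in IL-5+ cells and 164 in IL-5- cells. The 2 probe sets of H2-Ab1 ran from -1.05 to -0.68. The 2-fold lower marker was H2-Aa, named after its value was seen, at 51 in IL-5+ cells and 155.8 in IL-5- cells. Its 2 probe sets ran from -1.61 to -1.32. Of the 10 measured markers, 8 were below 0 and 2 above. Regulatory T cells are known for high Il2ra. Of 9 such markers, 4 were at least 2-fold lower and 1 higher, Foxp3 was dim at 39.6 in IL-5+ cells and 94.6 in IL-5- cells, and the brightest, Tnfrsf18 and Capg, stood at -0.18 and 0.68. NK cell and innate lymphoid markers, which bear on Il2rb and Il15ra, summed to 376.5 in IL-5+ cells and 207 in IL-5- cells over 7 genes, with 3 under the floor. Klrc1 (154 in IL-5+ cells and 88.4 in IL-5- cells) and Zbtb16 (49.4 in IL-5+ cells and 63.9 in IL-5- cells) were their brightest.

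The remaining lists were dim. CD8 and gamma-delta T cell markers summed to 397 in IL-5+ cells and 331.5 in IL-5- cells over 4 genes, led by Cd8b1 (280.2 in IL-5+ cells and 168 in IL-5- cells) and Cd8a (66.9 in IL-5+ cells and 76.7 in IL-5- cells). Neutrophil, basophil, mast cell and eosinophil markers summed to 272 in IL-5+ cells and 369 in IL-5- cells, with 9 of 12 under the floor and Kit (0.21) and Elane (0.37) the brightest. Erythroid, platelet, stromal and endothelial markers summed to 629 in IL-5+ cells and 622 in IL-5- cells, with 6 of 10 under the floor and Itga2b (-0.29) and Pecam1 (0.64) the brightest. The part of other cells in the ratios of Il21r, Il4ra and Il21 was not tested.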

How the data were processed

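RNA of the IL-5+ cells and of the IL-5- cells was hybridised to 1 array each. The authors deposited a linear signal intensity for every probe set. Per the submitters' processing notes it comes from GCOS, the scanner software of Affymetrix, whose version, algorithm and target value are not given here. The near-equal trimmed means (2% left out at each end) are what global scaling would give, which would make each ratio relative to the rest of the array. Of 45037 probe sets, 932 had several symbols and 9160 had none. The entrez identifiers of 34741 probe sets matched the RefSeq gene table and changed no symbol.

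The log2 ratio of intensity was computed after flooring, genes were counted at 2-fold, and no test was possible. Named genes were all members, the Il5 marker, flanking genes, the nearest ratios, all measured genes of lists with 5 or fewer, otherwise the 3 most different of each list, and the 2 brightest markers of each cell type. Others are stated as named after their values were seen. The members and lists were chosen with earlier results of these data known. The 19 lists hold 223 genes, and 20 of them lack a named probe set. Alternatives were 3 other scalings, 3 floors, an added constant, 2 probe set choices and 2 thresholds. Python 3.11.15, numpy 2.4.6, pandas 2.3.3, statsmodels 0.14.6 and matplotlib 3.10.9 were used.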

Additional observations from a re-analysis of the deposited data

How the results depend on the processing

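Of 71 log2 ratios of members under the 9 alternatives in scaling, floor and probe set choice, 69 moved by less than the SD between probe sets and 0 of the called members changed sign. The other 2 came from the median of probe sets, which gave Il21 -0.42 and Il2ra -0.064. The 3 floors could not change these ratios, because every member lay above each floor on both arrays at its brightest probe set. Leaving out the suffixed probe sets removed Il4ra and kept the same probe set for the other members. Only the 3 scalings, the added constant and the median of probe sets could therefore move a member's ratio. The median could not move Il2 or Il21r, which had a single probe set each. Members at least 2-fold lower numbered 3 except with the median of probe sets and without the suffixed probe sets (2 each) and at a 3-fold threshold (1, Il21r). At a 1.5-fold threshold 1 member, Il2, was higher. Over all genes the count of higher and lower genes, 374 and 526 of 13145 in the main setting, was 1325 and 1572 when the floor was the 20th percentile, 183 and 226 when it was the 60th, 2057 and 2311 with no floor, 232 and 300 with a constant of 50 added, 1035 and 1560 at 1.5-fold, and 91 and 143 at 3-fold. Division by the array median gave 435 and 443. No paired analysis was possible because each group has 1 array. The precision is limited by the number of arrays, and the third Il4ra probe set, under the floor in IL-5+ cells, gives a bound only.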
